A study of Mus musculus with 2 samples.

Results

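The CDK inhibitors are encoded by 8 genes here: the INK4 genes Cdkn2a, Cdkn2b, Cdkn2c and Cdkn2d, the CIP/KIP genes Cdkn1a, Cdkn1b and Cdkn1c, and Cdkn3, which belongs to neither family. They were taken by gene symbol from the 23183 genes of the mRNA sequencing tables, and all 8 were present. All 8 also counted as expressed, by an FPKM that averaged 1 or more across the libraries, as did 11231 genes in all. Cdkn1a and Cdkn2b were higher in the library labelled KPR_restored by more than 0.5 on the log2 scale, and the other 6 genes differed by less. FPKM counts the sequenced fragments of a gene relative to transcript length and sequencing depth, so levels of different genes can be set beside each other within a library.

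The cells are mouse lung cancer cells, grown in culture as immortalized cells from lung tumours of KPR L/F mice that had received no tamoxifen. The alleles of these mice are Runx3 flox/FSF, p53 flox/flox, K-Ras LSL-G12D/+, Flp ERT2 and a Rosa26R-Tomato reporter. Adenoviral Cre, driven by the CMV promoter and given through the nose, switched on K-Ras and deleted p53 and the floxed Runx3 allele in both conditions. In KPR- cells the remaining Runx3 allele is kept off by a Frt-Stop-Frt cassette, and 4-hydroxytamoxifen (4-OHT) lets the Flp recombinase remove that cassette, which gives KPR_restored cells. The labels give RUNX3 -/- and 0 h for KPR-, RUNX3 -/+ and 16 h for KPR_restored, and 1 μM 4-OHT for both, although 4-OHT is the agent that separates them. There was 1 library a condition, so no difference below has a replicate check, no p-value was computed, and a time or 4-OHT effect and a Runx3 effect cannot be told apart. The number of lines or clones behind the libraries is not given in the sources used here.

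CDK inhibitors are small proteins that hold back the cell cycle by binding cyclin-dependent kinases (CDKs). INK4 proteins bind Cdk4 and Cdk6 alone and keep D-type cyclins from them, which leaves the retinoblastoma protein (Rb) active and E2F target genes off. CIP/KIP proteins bind complexes of cyclin and CDK, above all those of Cdk2 with cyclins E and A, and also help to assemble cyclin D with Cdk4. Cdkn2a makes a pair of unrelated proteins from overlapping frames, p16Ink4a, a CDK inhibitor, and p19Arf, which holds Mdm2 away from p53. In cells with oncogenic Ras the Cdkn2a-Cdkn2b locus is a known brake on growth, and Cdkn1a is the best-known p53 target among the inhibitors.

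The values are per gene, so the transcripts of Cdkn2a that encode Ink4a and Arf cannot be told apart in them. The 2 transcripts annotated for Cdkn2a in GENCODE M21 differ in the first exon and share the next. Their junctions are shown here because this is where the proteins part: capitals mark the last 15 bases of each first exon, lower case the first 15 bases of the shared second exon, both on the minus strand of chromosome 4 (GRCm38).
Ink4a: CGTACCCCGATTCAGgtgatgatgatgggc
Arf: GGAATCCTGGACCAGgtgatgatgatgggc
The first exon of Ink4a (chr4:89281986-89282192) holds 126 coding bases, a whole number of codons, while that of Arf (chr4:89294334-89294653) holds 190, which leaves 1 base over. The shared exon is therefore read in another frame in each, giving 168 codons for Ink4a and 169 for Arf. The transcripts share 575 exonic bases, 67.5% of the 852 bases of the Ink4a transcript and 64.2% of the 895 bases of the Arf transcript.

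The promoters of the INK4 and CIP/KIP genes whose levels are compared most below are printed next, as the sequence upstream of the RefSeq start (GRCm38.p6). Capitals mark a cAMP response element (CRE, TGACGTCA) or a GC box (GGGCGG, the letters bound by Sp1), found on either strand. Cdkn2b (chr4:89311033-89311282, minus strand) is shown as the INK4 gene with the largest difference, with a CRE 46 bases before its start. Cdkn1a (chr17:29093519-29093768, plus strand) is shown as the CIP/KIP gene with the largest difference, with GC boxes 104 and 46 bases before the start that this window precedes. The window of another RefSeq start of Cdkn1a (chr17:29090729-29090978), not printed, holds neither motif. Values per gene do not show which start is used. Both starts of Cdkn2a are shown as those of the neighbour of Cdkn2b. The Arf sequence (chr4:89294654-89294869, minus strand) is cut at the GENCODE exon, and holds a GC box 48 bases before the RefSeq start, and the Ink4a sequence (chr4:89282193-89282442, minus strand) holds neither motif.
Cdkn2b: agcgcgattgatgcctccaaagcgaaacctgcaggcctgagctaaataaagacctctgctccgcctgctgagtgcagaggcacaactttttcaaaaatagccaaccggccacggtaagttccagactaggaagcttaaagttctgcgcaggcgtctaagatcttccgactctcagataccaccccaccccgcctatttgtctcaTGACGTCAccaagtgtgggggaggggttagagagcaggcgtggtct
Cdkn1a: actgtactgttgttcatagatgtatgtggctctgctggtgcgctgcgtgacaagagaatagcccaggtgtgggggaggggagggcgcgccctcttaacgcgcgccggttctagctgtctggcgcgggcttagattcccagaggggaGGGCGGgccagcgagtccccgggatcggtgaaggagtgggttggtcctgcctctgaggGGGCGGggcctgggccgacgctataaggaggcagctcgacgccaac
Cdkn2a, Arf: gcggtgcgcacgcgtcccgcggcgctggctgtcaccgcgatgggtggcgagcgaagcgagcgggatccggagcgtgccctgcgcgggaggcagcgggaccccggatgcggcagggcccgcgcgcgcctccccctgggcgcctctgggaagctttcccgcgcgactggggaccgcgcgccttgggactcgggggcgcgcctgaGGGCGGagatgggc
Cdkn2a, Ink4a: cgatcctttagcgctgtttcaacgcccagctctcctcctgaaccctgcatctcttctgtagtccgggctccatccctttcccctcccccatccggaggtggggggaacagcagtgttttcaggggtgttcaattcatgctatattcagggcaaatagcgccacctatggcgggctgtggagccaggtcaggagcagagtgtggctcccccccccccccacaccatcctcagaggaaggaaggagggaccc
RefSeq windows of 250 bases upstream were found for 7 of the 8 genes, 10 windows in all, and none for Cdkn1c. The RUNX core letters TGTGGT or TGCGGT were in 0 of these 10 windows on either strand, against 18.6% of the 32851 windows of all genes, which says only that these letters are not in these 250 bases. The GC box was in 6 of the 10 windows against 32.7% of all, and the CRE in 1 of 10 against 1.55% of all. The GC box and the CRE were picked after these windows had been read, so their shares are a description.

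The libraries were of similar depth. The steps of the low FPKM values put the KPR- library at about 21.8 M fragments and the KPR_restored library at 22.4 M, and between 36 and 3749 fragments stood behind the value of a CDK inhibitor gene in a library. The 95% intervals given for differences and levels (exact Clopper-Pearson and exact Poisson limits on these fragments) cover counting error only and not the spread between cultures. Runx3 was at 0.348 FPKM in KPR- and 0.349 in KPR_restored, a value per gene that does not check the labels, so directions are those of the library labelled KPR_restored against the library labelled KPR-. The epithelial genes Epcam, Cdh1, Krt7, Krt8, Krt18 and Krt19 were all expressed, with summed FPKM of 6110 and 5369, while none of 7 lung epithelial markers reached a mean FPKM of 1 and Sftpc, Sftpb, Sftpa1 and Scgb1a1 were listed at 0 in both, so lung identity was not seen in these markers. Of 5 leukocyte markers, 3 endothelial markers and 8 fibroblast or mesenchymal markers, 1, 1 and 2 reached a mean FPKM of 1 (Cd68, Kdr, and Vim with Col1a1), and Ptprc, Cd3e, Lyz2 and Thy1 stood between 0 and 0.00892. Col1a1 went from 12.2 to 4.21 FPKM and Cd68 from 3.08 to 6.78, and whether such genes have a part in the differences below was not tested.

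Cdkn2a (chr4:89274471-89294653, minus strand) had by far the highest level of the inhibitor genes, with its Ink4a and Arf transcripts counted together. Its FPKM was 206 in KPR- and 244 in KPR_restored, so that it stood above 96.7% and 97.2% of the expressed genes. The log2 difference, taken throughout as log2(FPKM + 0.005) in KPR_restored minus KPR-, was 0.24 with a counting interval of 0.17 to 0.31, above 0 but under the threshold of 0.5. In such bulk RNA, fewer cells with a transcript and less of it per cell cannot be told apart.

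Cdkn2b (chr4:89306299-89311039, minus strand) encodes p15Ink4b, the INK4 protein best known as an effector of TGF-beta arrest. Its FPKM was 33.7 in KPR- and 66.6 in KPR_restored, a ratio of 1.98. The log2 difference was 0.98 with an interval of 0.87 to 1.10, the largest of the INK4 genes, and 339 of the 11231 expressed genes had a larger one. Its place among expressed genes went from above 75.9% of them to above 88.4%. GENCODE M21 annotates 1 transcript of Cdkn2b, of 1390 bases, so a shift between transcripts of different annotated length does not enter its estimate of fragments.

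Cdkn2c (chr4:109660876-109667189, minus strand) and Cdkn2d (chr9:21288410-21291407, minus strand) encode p18Ink4c and p19Ink4d, INK4 proteins that many dividing cells express. Cdkn2c was at 13.9 FPKM in KPR- and 10.9 in KPR_restored, a log2 difference of -0.35 with an interval of -0.51 to -0.18. It was the only inhibitor gene whose interval lay below 0. Cdkn2d was at 15.7 and 14.8 FPKM, a difference of -0.08 with an interval of -0.28 to 0.12, which spans 0. The INK4 genes thus stood apart in direction, with the pair from the shared locus higher in KPR_restored, Cdkn2c lower, and Cdkn2d not separable at this depth.

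**Figure D1:**
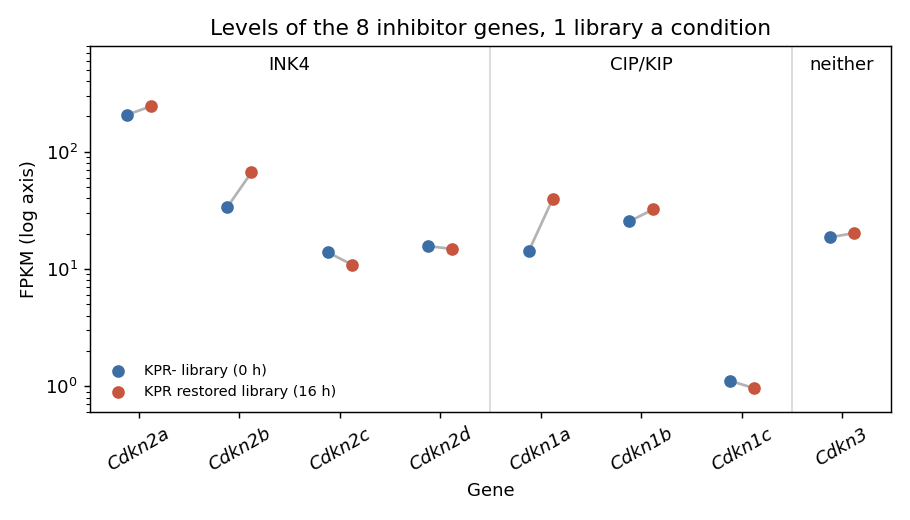
FPKM (log axis) of the 8 inhibitor genes in the KPR- library (0 h, blue) and the KPR_restored library (16 h, red), 1 point a library, with grey lines joining the values of a gene. Cdkn2a is highest in both libraries (206 and 244) and Cdkn1c lowest (1.11 and 0.963), and the steepest lines are those of Cdkn1a (14.2 to 39.6) and Cdkn2b (33.7 to 66.6).

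Cdkn1a (chr17:29090976-29100727, plus strand) encodes p21, which binds CDK complexes and also the replication clamp PCNA. Its FPKM was 14.2 in KPR- and 39.6 in KPR_restored, a ratio of 2.80. The log2 difference of 1.48, with an interval of 1.34 to 1.63, was the largest of the 8 genes, and 123 of the 11231 expressed genes had a larger one. It stood above 51.4% of the expressed genes in KPR- and above 79.2% in KPR_restored. Cre had deleted p53 in both conditions. Trp53 itself was at 2.12 and 2.17 FPKM, values per gene that do not show which exons remained. The annotation places a gene on the opposite strand across the start of Cdkn1a whose promoter is printed above. The strand setting of the counting is not given in the sources used here, so reads from the opposite strand cannot be told apart.

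Cdkn1b (chr6:134920401-134925513, plus strand) encodes p27, whose amount is set largely by protein breakdown. It was at 25.4 FPKM in KPR- and 32.3 in KPR_restored, a log2 difference of 0.34 with an interval of 0.24 to 0.45, above 0 and under the threshold. Cdkn1c (chr7:143458339-143461050, minus strand) encodes p57, an imprinted inhibitor read from the maternal allele. It was at 1.11 and 0.963 FPKM, from about 41 and 36 fragments, and its difference of -0.21 had an interval of -0.91 to 0.46. A difference of 0.5 either way could not have been shown for Cdkn1c at this depth. An opposite-strand gene is annotated within Cdkn1c as well.

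Cdkn3 (chr14:46760541-46771669, plus strand) encodes KAP, a phosphatase that removes the activating phosphate from Cdk2 and carries the name of an inhibitor without belonging to either family. It was at 18.6 FPKM in KPR- and 20.2 in KPR_restored, a log2 difference of 0.12 with an interval of -0.12 to 0.35.

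Set against all expressed genes, 2 of the 8 inhibitor genes were higher by 0.5 or more, where 12.1% of the expressed genes were, and 0 were lower by 0.5 or more, where 9.29% were. Counting intervals lay above 0 for 4 of the 8 (Cdkn1a, Cdkn2b, Cdkn1b and Cdkn2a), where they did for 34.2% of the expressed genes with an interval. They lay below 0 for 1 of the 8 (Cdkn2c), where they did for 33% of those genes, and spanned 0 for Cdkn2d, Cdkn3 and Cdkn1c. The median log2 difference of the 8 genes was 0.18, while that of the expressed genes was 0.0086 with quartiles of -0.23 and 0.27. Among expressed genes the difference went down with transcript length, from a median of 0.09 for longest transcripts up to 1000 bases to -0.18 for those over 6000. The longest transcripts of the 8 genes lie between 895 and 2471 bases. In the bin of 1000 to 2000 bases, with a median of 0.08, 15.8% of genes were higher by 0.5 or more and 6.36% lower. That bin holds Cdkn1a, Cdkn1c, Cdkn2b and Cdkn2d. Cdkn2a and Cdkn3 fall in the bin up to 1000 bases (16.9% higher, 9.44% lower), and Cdkn1b and Cdkn2c in that of 2000 to 3000 bases (14.6% and 6.57%).

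**Figure D2:**
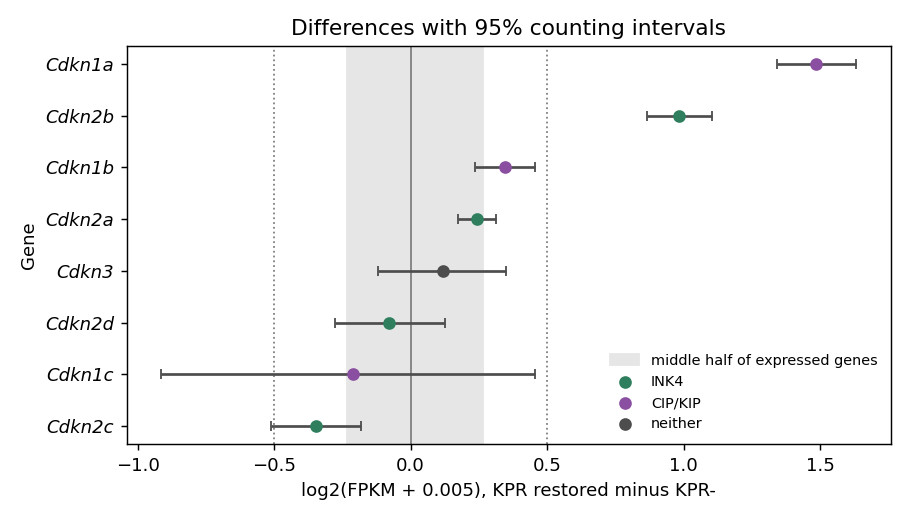
Log2 difference of each inhibitor gene, log2(FPKM + 0.005) in KPR_restored minus KPR-, with 95% counting intervals as bars, dotted lines at the threshold of 0.5 either way and grey shading between the quartiles of the expressed genes (-0.23 to 0.27). The intervals of Cdkn1a (1.34 to 1.63) and Cdkn2b (0.87 to 1.10) lie beyond 0.5, while those of Cdkn3, Cdkn2d and Cdkn1c span 0.

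The differences of the members were then compared with each other. Of the 28 pairs of genes, the counting intervals of 18 did not overlap and those of 10 did. The same share over pairs of all expressed genes was not computed, so this count does not set the members apart from other genes. Cdkn1a was above every other inhibitor gene, and its interval lay apart from that of Cdkn2b, the next gene, with differences 0.50 apart on the log2 scale. The interval of Cdkn2b lay apart from those of the other 7 genes as well. Among the remaining 6 genes, Cdkn1b, Cdkn2a and Cdkn3 overlapped with each other, as did Cdkn2c with Cdkn2d and Cdkn2d with Cdkn3, and Cdkn1c, with the fewest fragments, overlapped with all of them.

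The order of levels shifted at 1 gene in particular. In KPR- the order from high to low was Cdkn2a, Cdkn2b, Cdkn1b, Cdkn3, Cdkn2d, Cdkn1a, Cdkn2c and Cdkn1c. The Poisson limits of neighbours in that order overlapped for 3 of 7 pairs, Cdkn3 with Cdkn2d (16.6 to 20.9 and 14.2 to 17.2 FPKM), Cdkn2d with Cdkn1a (13.0 to 15.4) and Cdkn1a with Cdkn2c (12.8 to 14.9), while those of Cdkn3 lay above those of Cdkn1a and Cdkn2c. In KPR_restored Cdkn1a stood at place 3, above Cdkn1b, and the limits of 0 of 7 neighbouring pairs overlapped. The level of Cdkn1a was 0.557 times that of Cdkn1b in KPR- and 1.23 times in KPR_restored.

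Summed over the INK4 genes, the level was 270 FPKM in KPR- and 337 in KPR_restored, a log2 ratio of 0.32. Over the CIP/KIP genes it was 40.7 and 72.8 FPKM, a log2 ratio of 0.84. Cdkn2a made up 76.6% of the INK4 sum in KPR- and 72.6% in KPR_restored, and the share of Cdkn2b went from 12.5% to 19.8%. The value of Cdkn2a pools transcripts of Ink4a and Arf, so the part of the sum that encodes INK4 proteins is not known. Without Cdkn2a the INK4 log2 ratio was 0.55, a value that Cdkn2b carried, since Cdkn2c and Cdkn2d were both lower. In the CIP/KIP sum the share of Cdkn1a went from 34.8% to 54.4% and that of Cdkn1b from 62.5% to 44.3%, with Cdkn1c at 2.74% and 1.32%. The INK4 genes held 82.0% of the summed FPKM of all 8 genes in KPR- and 78.3% in KPR_restored.

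**Figure D3:**
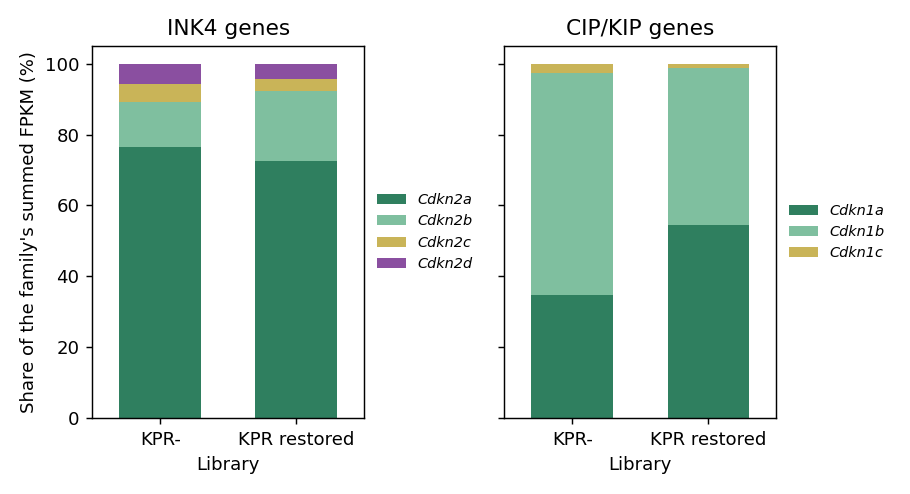
Share (%) of the summed FPKM of the INK4 genes (left) and of the CIP/KIP genes (right) that each gene made up in the KPR- and the KPR_restored library, as stacked bars from 0 to 100%. Cdkn2a fills most of the INK4 bar in both libraries (76.6% and 72.6%), while in the CIP/KIP bar the largest share passes from Cdkn1b (62.5%) to Cdkn1a (54.4%).

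The Cdkn2a-Cdkn2b locus was examined next, since its genes are adjacent on the same strand and are often silenced or lost together in cancer. The facing ends of their annotations are 11645 bases apart, and the start of Cdkn2b lies 16386 bases from the Arf start and 28847 from the Ink4a start, which itself lies 12461 bases from that of Arf. Despite this closeness the genes differed, with a log2 difference of Cdkn2a 0.74 below that of Cdkn2b and counting intervals apart. The level of Cdkn2a was 6.13 times that of Cdkn2b in KPR- and 3.67 times in KPR_restored. Of 37 other genes of the tables within 1 Mb of either gene, mostly interferon genes and gene models beside them, 18 were listed at 0 in both libraries and 3 were expressed. Mtap, the nearest of these and the methionine salvage gene often deleted together with Cdkn2a, was at 69.7 FPKM in KPR- and 60.7 in KPR_restored, a difference of -0.20 with an interval of -0.27 to -0.13. Klhl9 was at 23.8 and 25.6 FPKM (difference 0.10, interval 0.015 to 0.19), and Focad at 5.16 and 3.31 FPKM (difference -0.64, interval -0.82 to -0.46). Neither Mtap nor Focad shared the direction of Cdkn2b, and Klhl9 did so with a difference near 0.

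**Figure D4:**
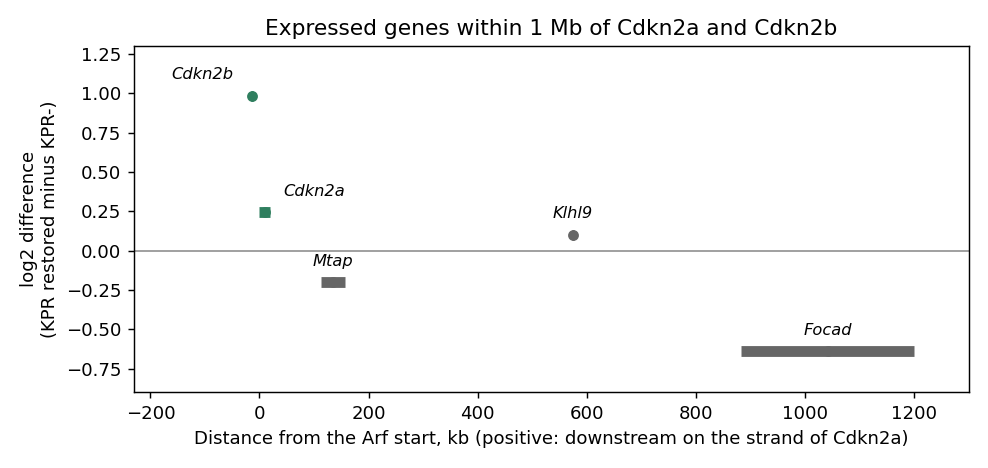
Log2 difference (KPR_restored minus KPR-) of the expressed genes within 1 Mb of Cdkn2a and Cdkn2b, against distance in kb from the Arf start, positive in the direction in which Cdkn2a is transcribed, with long genes drawn as bars over their extent. Cdkn2b lies highest at 0.98, its neighbour Cdkn2a at 0.24, and Mtap (-0.20) and Focad (-0.64) below 0.

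The kinases that INK4 proteins bind and the D-type cyclins kept from them were not higher by 0.5 or more. Cdk4, the main INK4 target here by level, was at 342 FPKM in KPR- and 334 in KPR_restored (difference -0.03), and Cdk6 at 17.8 and 12.9 (-0.47). Ccnd1, the D-type cyclin induced by Ras signalling, was at 331 and 203 FPKM, a difference of -0.71. Ccnd2 was at 34.2 and 37.3 (0.12) and Ccnd3 at 35.0 and 29.0 (-0.27). So 1 of these 5 genes was lower by 0.5 or more and 0 higher, with a median of -0.27. Of all expressed genes, 9.29% were lower and 12.1% higher by that much. The summed INK4 level was 0.749 times that of Cdk4 and Cdk6 in KPR- and 0.971 times in KPR_restored, and 0.674 and 1.25 times that of the D-type cyclins. Cdkn2a made up 76.6% of the INK4 sum in KPR- and 72.6% in KPR_restored, and its value pools Ink4a and Arf transcripts. Arf is not a CDK inhibitor, so how much of these ratios is INK4 mRNA is not known. They are ratios of mRNA levels and say nothing of protein complexes.

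Among CIP/KIP targets, 3 of 7 expressed genes were lower by 0.5 or more and 0 higher, with a median of -0.25. Over all expressed genes these shares were 9.29% and 12.1%. Ccna1 was listed at 0 in both libraries. The lower genes were the S-phase cyclins Ccne2 (4.42 to 1.89 FPKM, difference -1.22), Ccne1 (11.98 to 6.97, -0.78) and Ccna2 (85.8 to 58.5, -0.55). Cdk2 was at 27.1 and 22.7 FPKM (-0.25), Cdk1 at 71.0 and 62.1 (-0.19), and the mitotic cyclins Ccnb1 and Ccnb2 at 99.7 and 94.0 (-0.08) and at 49.9 and 42.0 (-0.25). The summed CIP/KIP level was 0.414 times that of Cdk1 and Cdk2 in KPR- and 0.859 times in KPR_restored, and 0.398 and 1.08 times that of the E- and A-type cyclins. The INK4 and CIP/KIP sums were thus higher in KPR_restored and the sums of the cyclins beside them lower, by -0.57 for D-type and -0.60 for E- and A-type cyclins on the log2 scale.

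Downstream of the inhibitors, Rb1, the retinoblastoma gene, was at 3.34 FPKM in KPR- and 4.21 in KPR_restored (difference 0.33), and its relatives Rbl1 and Rbl2 at 16.2 and 13.4 (-0.28) and at 4.91 and 4.36 (-0.17). Of 16 genes that E2F factors drive at the start of S phase, 10 were lower by 0.5 or more and 0 higher, with a median of -0.54. Of all expressed genes, 9.29% were lower and 12.1% higher by that much. Mcm6, part of the replicative helicase, was at 86.6 and 45.8 FPKM (-0.92), while Cdt1, which loads that helicase, was at 45.0 and 53.6 (0.25). Of 15 genes of G2 and mitosis, 4 were lower and 0 higher, with a median of -0.25. Neither these lists nor the others were matched for transcript length. Among expressed genes with longest transcripts over 6000 bases, 16.2% were lower by 0.5 or more and 5.53% higher. How much of a list's count goes with length was not tested. The lowest were Mki67, the proliferation marker Ki-67 (101 to 60.1 FPKM, -0.75), and Top2a (194 to 118, -0.72), whereas Aurka (72.7 and 76.5, 0.07) and Ube2c (230 and 248, 0.10) were slightly higher. Cdkn3, whose mRNA is known to peak with mitotic genes, had a difference of 0.12, with an interval of -0.12 to 0.35 that spans 0. That difference lay above the list's median of -0.25 and just above that of Ube2c, the highest of the 15 genes.

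Genes known to act on the inhibitors themselves were compared in the same way.  The counts stand beside 12.1% of all expressed genes higher and 9.29% lower by the threshold. Of 15 expressed repressors of Ink4a/Arf, mostly Polycomb genes, 0 were lower by the threshold, with a median of -0.01. Ring1 was at 5.31 and 7.50 FPKM (0.50, just under the threshold), and the lowest were Suz12 (42.9 to 31.9, -0.43) and Bmi1, the classic Ink4a/Arf repressor (21.6 to 16.4, -0.40). Of 7 activators of the locus, 2 were higher and 0 lower (12.1% and 9.29% of all expressed genes), with a median of 0.32. These were Kdm6b, the demethylase that removes the Polycomb mark (10.9 to 17.9 FPKM, 0.71), and Foxo3 (5.78 to 8.33, 0.53). Ets2 was at 50.1 and 67.1 (0.42) and Dmtf1, an activator of Arf, at 14.9 and 18.6 (0.32), with Smarcb1 (58.0 and 58.8, 0.02), Ets1 (16.7 and 16.6, -0.01) and E2f1 (18.2 and 17.5, -0.06) close to 0.

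Of 12 genes of TGF-beta signalling to Cdkn2b and Cdkn1a, 1 was higher and 1 lower, with a median of -0.03. Of all expressed genes, 12.1% were higher and 9.29% lower. Myc, which with Zbtb17 (Miz1) represses both Cdkn2b and Cdkn1a, was itself higher, at 73.6 FPKM in KPR- and 117 in KPR_restored (0.67), and Zbtb17 was at 6.07 and 7.92 (0.38). Tgfb2 was at 2.82 and 1.86 (-0.60) and the receptor Tgfbr1 at 17.9 and 13.3 (-0.43). Whether any gene of this list has a part in the higher values of Cdkn2b and Cdkn1a was not tested.

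Of the genes of the axis from Arf to p53, 0 of 6 were higher and 1 lower, with a median of -0.19. The shares over all expressed genes, for this list and the next, were 12.1% higher and 9.29% lower. Mdm2, the ubiquitin ligase that Arf holds in check, was at 19.995 and 27.1 FPKM (0.44), Mdm4 at 16.8 and 13.6 (-0.31), and Npm1, the nucleolar partner of Arf, at 1496 and 1324 (-0.18). Huwe1, a ligase that Arf binds, was at 53.9 and 36.7 (-0.56), Trip12, a ligase that acts on Arf, at 36.8 and 31.8 (-0.21), and Trp53 differed by 0.03. Of 15 expressed p53 target genes besides Cdkn1a, 7 were higher and 0 lower, with a median of 0.44. Cre had deleted p53 in both conditions, and what lay behind these differences was not tested. The largest differences were those of Gdf15 (1.88 to 27.97 FPKM, 3.89) and Trp53inp1 (1.78 to 8.85, 2.32), and the lowest values those of Fas (2.82 to 2.07, -0.45) and Sesn1 (3.37 to 2.96, -0.19). Cdkn1a thus lay among genes of this list that were higher, such as Trp53inp1, and not all of the list followed it.

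Of 11 parts of the ubiquitin ligases that degrade p21, p27 and p57, 1 was lower and 0 higher, with a median of -0.13. Over all expressed genes 9.29% were lower and 12.1% higher. The lower gene was Skp2, the F-box protein that recognises p27 (20.3 to 13.2 FPKM, -0.62), followed by Cul4b (40.9 to 32.6, -0.33). Rnf123, which acts on p27 in G1, was at 6.69 and 8.53 (0.35) and its partner Ubac1 at 9.39 and 10.5 (0.16). In the imprinted domain of Cdkn1c, 2 of 8 genes were expressed, Phlda2 (11.5 and 8.39 FPKM, -0.45) and Nap1l4 (74.3 and 61.3, -0.28), and the imprinting RNA Kcnq1ot1 was at 0.449 and 0.462 FPKM, with Kcnq1, Slc22a18, Ascl2, H19 and Igf2 between 0 and 0.309. Of 7 expressed genes whose products are named for binding CDKs or their inhibitors, 0 were past the threshold, with a median of 0.10. The largest differences among them were those of Cdkn2aip, a partner of Arf (6.14 to 8.23 FPKM, 0.42), and Cdk2ap1, a partner of Cdk2 (145 to 113, -0.35). The others were Cdk2ap2 (58.3 and 66.7 FPKM, 0.19), Cdk5rap3 (17.2 and 18.8, 0.12), Cables2 (13.6 and 14.6, 0.10), Cdkn2aipnl (45.6 and 45.1, -0.02) and Cks2 (64.9 and 63.8, -0.02), and Cables1 stood at 0.846 and 0.736.

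Inhibitors of both families are often read as signs of senescence, a lasting arrest with secretion of inflammatory factors. Of 12 expressed genes linked with it, 3 were higher and 3 lower (12.1% and 9.29% of all expressed genes), with a median of 0.02. Mmp3 (0.488 to 3.86 FPKM, 2.97) and Il1a (1.37 to 8.66, 2.65) were highest by difference, and Ccl2 (334 to 176, -0.93) and Lmnb1, the lamin whose loss marks senescent cells (71.2 to 42.6, -0.74), lowest. The secreted factors of the list therefore went both ways beside Cdkn1a and Cdkn2b. Some genes stand on more than a single list, such as Mdm2, E2f1, Ccne1 and Ccne2, so the counts of the 14 lists are not independent of each other.

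**Figure D5:**
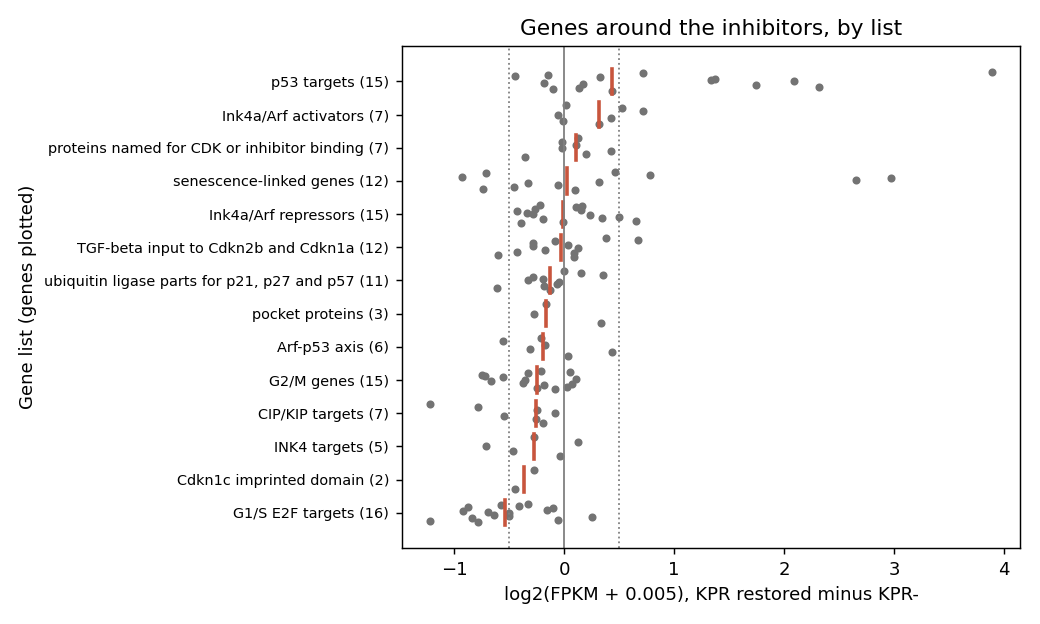
Log2 differences (KPR_restored minus KPR-) of the expressed genes in each of 14 lists of genes around the inhibitors, 1 grey point a gene, with the list's median as a red bar and dotted lines at 0.5 either way. Medians run from -0.54 for the G1/S E2F targets to 0.44 for the p53 targets, beside 0.0086 for all expressed genes.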

How the data were processed

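mRNA of KPR- and KPR_restored cells was sequenced as 1 library each. Poly(A) RNA was isolated, directional libraries were made, reads were trimmed and mapped to mm10 using TopHat, and the authors deposited 1 FPKM value per gene and library, estimated using Cufflinks (versions are not given in the sources used here). Read counts were not used here.

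Differences are log2(FPKM + 0.005) in KPR_restored minus KPR-, with a threshold of 0.5 on that scale, which understates changes of genes near the pseudocount. With 1 library a condition no test was run. Depth was fitted to the FPKM steps of 3677 genes of a single transcript length (GENCODE M21, GRCm38), and came to 21.8 M (KPR-) and 22.4 M (KPR_restored) fragments, 211 bases long on average. Of genes with 0.5 to 5.5 estimated fragments, 80.3% and 82.8% lay within 0.1 of a whole number. Fragments per gene used the longest transcript, with an effective length of at least 100 bases. Of the gene symbols, 22148 matched GENCODE directly and 655 through a synonym. The depth estimate was tested on simulated data.

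The members and all gene lists were chosen with earlier results of these data known. From each list those 2 genes that increased most on log2(FPKM + 1) and those 2 that decreased most were named, and all genes of lists of up to 8. Exceptions named after their values were seen are Ptprc, Cd3e, Lyz2 and Thy1, and the marker genes given with values. Some genes of the lists are not reported here. Alternatives were pseudocounts of 0.1 and 1, other scalings, a mean FPKM of at least 5 or no minimum, a threshold of 1, the shortest coding transcript, family sums without their top gene and, added after seeing the data, removal of the length trend. Promoter sequences are from RefSeq (GRCm38.p6). The software was matplotlib 3.10.9, scipy 1.17.1, pandas 2.3.3 and numpy 2.4.6 under Python 3.11.15.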

Additional observations from a re-analysis of the deposited data

How the results depend on the processing

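With a threshold of 1 in place of 0.5, 1 of the 8 inhibitor genes was higher (Cdkn1a, since the difference of Cdkn2b was 0.98), and the share of expressed genes past the threshold was 2.89% higher and 1.38% lower. Without the gene of the highest mean FPKM, the log2 ratio of the summed INK4 genes was 0.55 (without Cdkn2a) and that of the CIP/KIP genes 1.41 (without Cdkn1b). The direction of each of the 8 differences held under every pseudocount, scaling and correction tried, with ranges of 1.38 to 1.48 for Cdkn1a, 0.89 to 0.98 for Cdkn2b, 0.29 to 0.34 for Cdkn1b, 0.18 to 0.24 for Cdkn2a, 0.06 to 0.12 for Cdkn3, -0.17 to -0.07 for Cdkn2d, -0.31 to -0.11 for Cdkn1c and -0.40 to -0.32 for Cdkn2c. A pseudocount added to both values cannot change a direction, so that part of the outcome was fixed in advance. The counting intervals of Cdkn3, Cdkn2d and Cdkn1c span 0, so their directions are not separable from counting error. No paired analysis was possible because there is 1 library a condition. Depth limits Cdkn1c most, at 41 and 36 estimated fragments.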
